A study of Mus musculus with 11 samples.

Results

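Blood vessels of the face at embryonic day (E) 10.5 are lined by endothelial cells, and 10 genes that mark these cells, *Pecam1*, *Cdh5*, *Kdr*, *Flt1*, *Tek*, *Tie1*, *Emcn*, *Erg*, *Sox17* and *Sox18*, were followed in RNA sequencing of mouse facial process explants. The genes were taken as a set of known endothelial markers and matched by symbol to the Ensembl identifiers of the count files, where all 10 were found among 38561 genes. The 11 libraries came from embryos of mixed strain at E10.5 and hold 2 labelled wild type (wt), 3 labelled homozygous mutant for *Rspo2* (Rspo2KO), 3 labelled homozygous mutant for *Wnt9b* (Wnt9bKO) and 3 labelled homozygous for both mutations (DKO). The mutations were carried in every cell and not directed to endothelium, and nothing in the labels says that replicates came from separate embryos or litters, so p-values measure only the spread between these samples. RSPO2 is a secreted protein that raises the response of cells to WNT ligands and WNT9b is a WNT ligand of the facial ectoderm. The comparisons ask how the level of each endothelial gene differed when either or both were mutated.

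Endothelial cells take up growth signals through receptor tyrosine kinases. VEGF ligands act through the receptors encoded by *Kdr* and *Flt1*, of which the former carries most of the growth signal while the latter binds VEGF tightly and limits it. Angiopoietins act through *Tek* (TIE2), and *Tie1* is its partner receptor. *Pecam1* and *Cdh5* (VE-cadherin) encode adhesion molecules of the contacts between endothelial cells, and *Emcn* (endomucin) encodes a sialomucin of the cell surface found mostly on capillaries and veins. *Erg* is an ETS transcription factor that maintains endothelial identity, and *Sox17* and *Sox18* belong, with *Sox7*, to the SOXF factors of vessel growth, arteries and lymphatics.

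All 10 genes are protein-coding. In GRCm38 coordinates they lie at chr5:75932827-75978458 (*Kdr*), chr5:147561604-147726011 (*Flt1*), chr4:94739289-94874976 (*Tek*), chr4:118471191-118490061 (*Tie1*), chr11:106654217-106750628 (*Pecam1*), chr8:104101625-104144511 (*Cdh5*), chr3:137341067-137432185 (*Emcn*), chr16:95359169-95586593 (*Erg*), chr1:4490931-4497354 (*Sox17*) and chr2:181669836-181671640 (*Sox18*). *Cdh5* overlaps the opposite-strand gene *Gm29682* and *Sox17* overlaps *Gm37587*. The strand setting of the counting is not given in the sources used here, so reads of each pair may not be told apart.

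Promoters of *Kdr*, *Tek* and *Emcn* are shown because *Kdr* was higher and *Tek* and *Emcn* were lower in the same mutant libraries. Each run is the 250 bases before the RefSeq start on GRCm38.p6, read 5′ to 3′ on the gene's strand. Capitals mark GGAAG, 1 form of the ETS motif, or its reverse complement CTTCC. Other forms of the ETS motif were not searched. The *Kdr* stretch is chr5:75978456-75978705 on the minus strand, that of *Tek* is chr4:94739039-94739288 on the plus strand, and that of *Emcn* is chr3:137340828-137341077 on the plus strand.
Kdr: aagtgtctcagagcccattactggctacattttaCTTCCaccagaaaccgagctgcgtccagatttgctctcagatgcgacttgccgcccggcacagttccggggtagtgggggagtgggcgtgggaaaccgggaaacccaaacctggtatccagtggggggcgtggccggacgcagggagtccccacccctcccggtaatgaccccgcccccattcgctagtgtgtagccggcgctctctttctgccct
Tek: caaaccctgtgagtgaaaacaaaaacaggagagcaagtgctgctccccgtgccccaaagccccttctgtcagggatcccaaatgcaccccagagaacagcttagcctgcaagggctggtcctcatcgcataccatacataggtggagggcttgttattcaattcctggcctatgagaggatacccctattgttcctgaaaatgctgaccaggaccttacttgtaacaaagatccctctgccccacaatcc
Emcn: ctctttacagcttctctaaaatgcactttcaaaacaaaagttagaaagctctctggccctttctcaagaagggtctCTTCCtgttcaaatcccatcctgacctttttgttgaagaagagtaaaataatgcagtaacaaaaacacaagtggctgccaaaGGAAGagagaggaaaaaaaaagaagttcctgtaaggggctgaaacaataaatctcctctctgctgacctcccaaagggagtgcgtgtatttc
The *Kdr* promoter was rich in GC (61.6%) and held 1 GGAAG match, 216 bases before the start. The *Emcn* promoter had 40.8% GC and held GGAAG matches at 174 and 92 bases before the start and 1 SOX core (ACAAT, searched on both strands) at 49 bases. The *Tek* promoter had 51.2% GC, no GGAAG and 2 SOX cores, at 63 and 7 bases before the start. Of 32851 mouse promoters of the same length, 64.1% held GGAAG, 27.7% held ACAAT and 13.8% held the TCF/LEF core CTTTGA. None of the promoters found for the endothelial genes, which were those of *Kdr*, *Flt1*, *Tek*, *Tie1*, *Emcn* and *Erg*, held CTTTGA. These matches describe letters in a window and are not binding sites.

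Several facts of the libraries bear on every comparison. Total counts ranged from 11136166 to 18017344. *Rspo2* went against the label in 2 libraries, with 2.86 CPM (counts relative to the library's total, scaled by TMM factors) in Wnt9bKO 2 against 22.8 and 18.1 in the other Wnt9bKO libraries, and 15.5 CPM in DKO 3 against 4.17 and 3.67 in the other DKO libraries. *Wnt9b* was not lower in the libraries labelled as its mutants, at 10.8 to 13.4 CPM in wt, 16.2 to 23.3 in Wnt9bKO and 18.3 to 20.2 in DKO. The summed level of small nuclear RNA genes was 352 to 420 CPM in wt and Rspo2KO but 70.1 to 82.7 CPM in Wnt9bKO and DKO, so the comparisons of either of these genotypes with wt or Rspo2KO carry this difference. *Xist*, which marks female cells, was at 680 to 1469 CPM in wt and DKO and under 2 CPM in Wnt9bKO and Rspo2KO. The part of these differences in the results below was not tested.

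Endothelial transcripts were present in every library. The 10 genes summed to 202 and 219 CPM in wt, 229 to 253 in Rspo2KO, 228 to 248 in Wnt9bKO and 220 to 248 in DKO. Each mutant library lay above both wt libraries, but DKO 2 did so by little (220.1 against 218.84 CPM in wt 1). Single genes moved both ways. In bulk tissue, a change in the number of endothelial cells and a change in RNA per cell cannot be told apart. Levels between genes were compared per kilobase of exon. In wt, *Cdh5* was highest at 6.49 ± 1.85 CPM per kb (SD, n = 2), followed by *Emcn* (5.67 ± 0.597), *Tek* (5.61 ± 0.591), *Tie1* (5.14 ± 0.159), *Kdr* (4.77 ± 0.677) and *Pecam1* (3.97 ± 0.814), and the mean ± SD range of each of the first 5 overlapped that of the next. The lower genes in wt were *Erg* (1.96 ± 0.0382 CPM per kb), *Flt1* (1.51 ± 0.124), *Sox18* (1.35 ± 0.274) and *Sox17* (0.729 ± 0.0252). The *Flt1* and *Sox18* ranges overlapped, while *Pecam1* stood clear of *Erg*, *Erg* of *Flt1* and *Sox18* of *Sox17*.

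The order of the genes differed in the mutants. In DKO, *Cdh5* was at 10.2 ± 0.947 CPM per kb (SD, n = 3), then *Kdr* at 6.63 ± 0.507 and *Pecam1* at 4.95 ± 0.361, each clear of the gene before it. *Tie1* (4.60 ± 0.272), *Tek* (4.0 ± 0.283) and *Emcn* (3.83 ± 0.511) came next, with *Tie1* within the spread of *Pecam1* and *Emcn* within that of *Tek*. *Sox18* (2.81 ± 0.317), *Erg* (2.33 ± 0.220), *Flt1* (1.57 ± 0.186) and *Sox17* (0.621 ± 0.0696) closed the order, and the ranges of *Sox18* and *Erg* overlapped. The same order was seen in Wnt9bKO, from *Cdh5* at 10.4 ± 0.656 and *Kdr* at 7.35 ± 0.688 to *Tek* at 3.82 ± 0.758, *Emcn* at 3.62 ± 0.889 and *Sox17* at 0.602 ± 0.0233 CPM per kb. In Rspo2KO, *Cdh5* (10.4 ± 1.75 CPM per kb) and *Kdr* (6.38 ± 0.498) led as well, but *Emcn* (5.72 ± 0.516) and *Tek* (5.15 ± 0.649) stayed next in order, within each other's spread, and ahead of *Tie1* (4.83 ± 0.247) and *Pecam1* (3.85 ± 0.404).

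**Figure D1:**
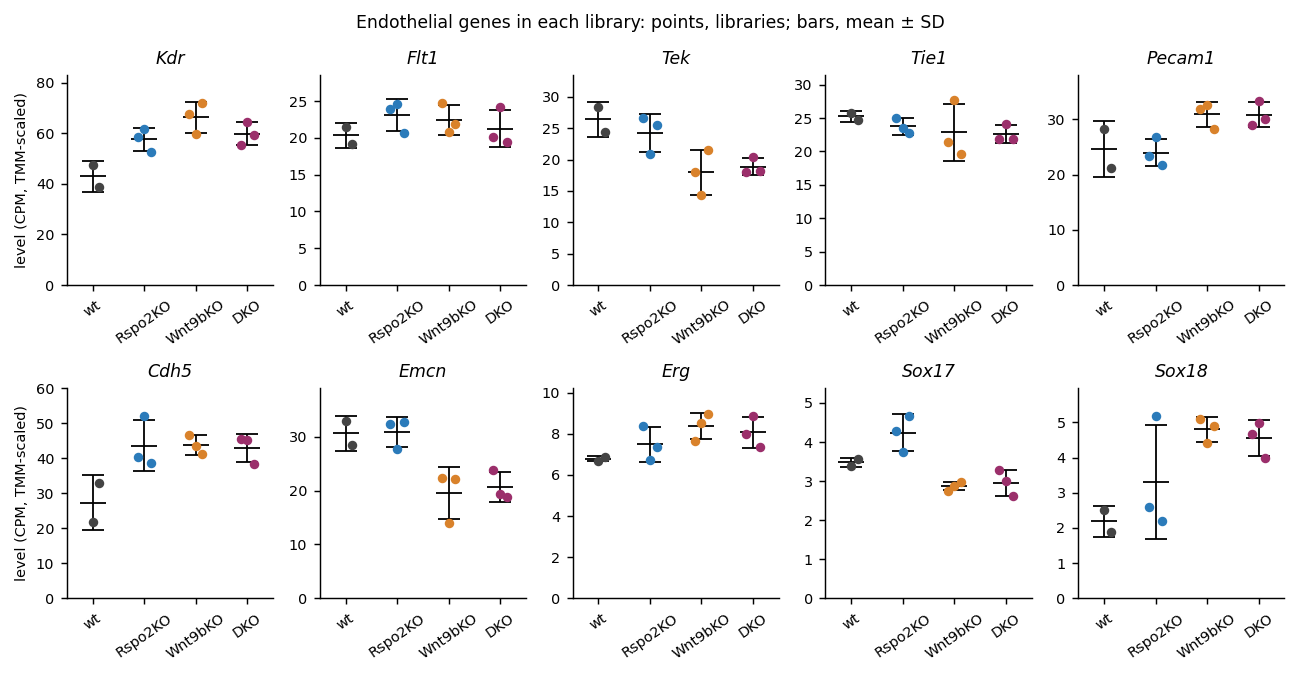
Level of each endothelial gene in CPM (TMM-scaled, axis from 0) in the libraries of the 4 genotypes, with points for libraries and black bars for the mean ± SD (n = 2 for wt, n = 3 for each mutant). *Emcn* and *Tek* points of Wnt9bKO and DKO lie below both wt points, while *Kdr*, *Cdh5* and *Sox18* points of these genotypes lie above them.

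In Wnt9bKO against wt, endothelial genes moved in both directions. *Kdr*, *Cdh5* and *Sox18* rose and *Tek* and *Emcn* fell, so 5 of the 10 genes passed the test (edgeR quasi-likelihood test, Benjamini-Hochberg adjusted p below 0.05 over 17317 genes), against 32.8% of all genes tested. The median log2 fold change of the 10 genes was 0.22, against 0.01 over all genes, and became 0.09 without wt 2 and 0.05 when GC content and length were modelled (0.03 with the replicate block as well). In DKO against wt, the same 5 genes passed in the same directions, against 27.5% of all genes, with a median of 0.16 against 0.02 over all genes. This median became 0.05 without wt 2, 0.07 without DKO 1 and 0.06 when GC content and length were modelled (0.05 with the block). Both comparisons use the same 2 wt libraries, so they are not separate evidence. In Rspo2KO against wt, 0 genes passed with edgeR, against 0.0346% of all genes. An unadjusted p below 0.05 was found for 2 (*Cdh5* and *Kdr*), against 11.9% of all genes, and DESeq2 called 1 (*Cdh5*), against 1.44%. The study's methods give a call rule of p below 0.05 with a change over 1.5-fold, used there with DESeq2. With this rule on unadjusted edgeR values, 4 genes were called in Wnt9bKO, 1 in Rspo2KO and 2 in DKO, against 24.8%, 4.68% and 20.4% of all genes.

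Among the VEGF receptors, *Kdr* rose while its relative *Flt1* did not pass the test. *Kdr* was at 47.4 and 38.8 CPM in wt, 61.6, 52.7 and 58.5 in Rspo2KO, 59.6, 71.9 and 67.5 in Wnt9bKO, and 64.6, 59.4 and 55.5 in DKO. Every mutant library lay above both wt libraries, and the mutants overlapped each other. The log2 fold change against wt was 0.63 in Wnt9bKO (95% interval 0.354 to 0.896, adjusted p = 0.00205) and 0.48 in DKO (0.206 to 0.747, adjusted p = 0.0125). In Rspo2KO it was 0.42 (0.150 to 0.691), which had an unadjusted p of 0.00482 but an adjusted p of 0.229. *Flt1* had 21.5 and 19.1 CPM in wt against 19.5 to 24.7 CPM over the mutants, with the groups overlapping throughout. Its log2 fold changes were 0.14 in Wnt9bKO (interval −0.154 to 0.444), 0.07 in DKO (−0.232 to 0.367) and 0.18 in Rspo2KO (−0.116 to 0.484), and those in Wnt9bKO and DKO became −0.18 and −0.20 when GC content and length were modelled. Within a library, the ratio of *Kdr* to *Flt1* counts was 2.03 to 2.20 in wt, 2.44 to 2.55 in Rspo2KO, 2.73 to 3.30 in Wnt9bKO and 2.68 to 3.05 in DKO, without overlap between wt and any mutant.

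The angiopoietin receptor *Tek* fell. Its levels were 28.4 and 24.5 CPM in wt, 20.8, 25.4 and 26.6 in Rspo2KO, 14.4, 21.5 and 18.05 in Wnt9bKO, and 20.4, 18.12 and 18.03 in DKO. All Wnt9bKO and DKO libraries lay below both wt libraries, whereas Rspo2KO overlapped wt. *Tek* fell by 0.55 on the log2 scale in Wnt9bKO (interval −0.904 to −0.204, adjusted p = 0.0184) and fell by 0.48 in DKO (−0.835 to −0.134, adjusted p = 0.0398). In Rspo2KO the log2 fold change was −0.12 (−0.467 to 0.233, adjusted p = 0.815). The fall in DKO did not pass without Wnt9bKO 2 and DKO 3, the libraries at odds with their *Rspo2* labels (log2 fold change −0.46, adjusted p = 0.0582), while that in Wnt9bKO did (−0.71, adjusted p = 0.00737). *Tie1*, the partner of *Tek*, had 25.8 and 24.7 CPM in wt against 19.6 to 27.7 CPM over the mutants. Its log2 fold changes were −0.14 in Wnt9bKO, −0.16 in DKO and −0.09 in Rspo2KO, with intervals that all contained 0 (lowest bound −0.464, highest bound 0.217). The ratio of *Tek* to *Tie1* counts was 0.990 and 1.10 in wt and 0.825 to 0.844 in DKO, but 0.519 to 1.10 in Wnt9bKO, which spanned wt.

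The junction and surface genes split. *Cdh5* was at 21.8 and 32.8 CPM in wt, 52.0, 38.6 and 40.3 in Rspo2KO, 43.4, 41.3 and 46.8 in Wnt9bKO, and 45.1, 38.4 and 45.5 in DKO. Both wt libraries were below all mutant libraries, and they differed from each other more than the Wnt9bKO libraries did. The log2 fold change was 0.67 in Wnt9bKO (0.309 to 1.04, adjusted p = 0.00786), 0.65 in DKO (0.283 to 1.01, adjusted p = 0.0119) and 0.66 in Rspo2KO (0.30 to 1.03, unadjusted p = 0.0015, adjusted p = 0.216). *Emcn* moved the other way. It was at 33.0 and 28.4 CPM in wt, 27.7, 32.7 and 32.4 in Rspo2KO, 14, 22.2 and 22.4 in Wnt9bKO, and 19.4, 18.9 and 23.9 in DKO. Each Wnt9bKO and DKO library lay below every wt and Rspo2KO library. *Emcn* fell by 0.65 on the log2 scale in Wnt9bKO (−1.04 to −0.259, adjusted p = 0.0143) and by 0.56 in DKO (−0.951 to −0.172, adjusted p = 0.0336), and its log2 fold change in Rspo2KO was 0.02 (−0.373 to 0.405).

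*Pecam1*, the adhesion gene most often used as a vessel marker, was at 28.3 and 21.1 CPM in wt, 26.7, 21.8 and 23.4 in Rspo2KO, 32.5, 28.3 and 31.9 in Wnt9bKO, and 33.4, 30.02 and 29.1 in DKO. The DKO libraries lay above both wt libraries, and Wnt9bKO 2 was level with wt 1. The differences from wt, 0.33 in Wnt9bKO (adjusted p = 0.0922) and 0.32 in DKO (adjusted p = 0.107), did not pass the test. Within a library, the ratio of *Kdr* to *Emcn* counts was 1.37 to 1.44 in wt, 1.61 to 2.22 in Rspo2KO, 3.01 to 4.26 in Wnt9bKO and 2.32 to 3.32 in DKO, so that no Wnt9bKO or DKO library reached the range of the others. These ratios do not depend on scaling between libraries. They are not corrected for GC content or length, and the longest transcripts of *Kdr* (49.4% GC) and *Emcn* (40.7%) differ in GC content. The ratio of *Cdh5* to *Pecam1* was 0.770 and 1.55 in wt, which covered the Wnt9bKO range of 1.33 to 1.47 and overlapped the DKO range of 1.28 to 1.57. In Rspo2KO it was 1.72 to 1.95, above every other library.

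Of the transcription factors, *Sox18* rose and *Sox17* and *Erg* did not pass against wt. *Sox18* was at 2.50 and 1.87 CPM in wt, 5.17, 2.19 and 2.59 in Rspo2KO, 4.42, 4.89 and 5.10 in Wnt9bKO, and 4.99, 3.99 and 4.67 in DKO. These levels rest on few reads, with 28 and 31 counts in wt and 64 to 85 in the Wnt9bKO and DKO libraries. All Wnt9bKO and DKO libraries lay above wt, whereas Rspo2KO 1 lay at their level and both other Rspo2KO libraries lay near wt. The log2 fold change was 1.15 in Wnt9bKO (0.466 to 1.84, adjusted p = 0.0136) and 1.08 in DKO (0.388 to 1.76, adjusted p = 0.0231), the largest of the 10 genes in either comparison. *Sox17* was at 3.39 and 3.56 CPM in wt, 3.74 to 4.67 in Rspo2KO, 2.76 to 2.98 in Wnt9bKO and 2.62 to 3.28 in DKO. Its libraries did not overlap between wt and any mutant, but the differences of −0.28 in Wnt9bKO (adjusted p = 0.316), −0.23 in DKO (adjusted p = 0.430) and 0.29 in Rspo2KO (adjusted p = 0.602) did not pass. The ratio of *Sox18* to *Sox17* counts was 0.525 and 0.737 in wt, 1.54 to 1.85 in Wnt9bKO and 1.43 to 1.67 in DKO, while Rspo2KO spanned 0.468 to 1.38. *Erg* had 6.70 and 6.89 CPM in wt against 6.74 to 8.94 CPM over the mutants, with log2 fold changes of 0.30, 0.25 and 0.14 in Wnt9bKO, DKO and Rspo2KO and intervals that contained 0.

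**Figure D2:**
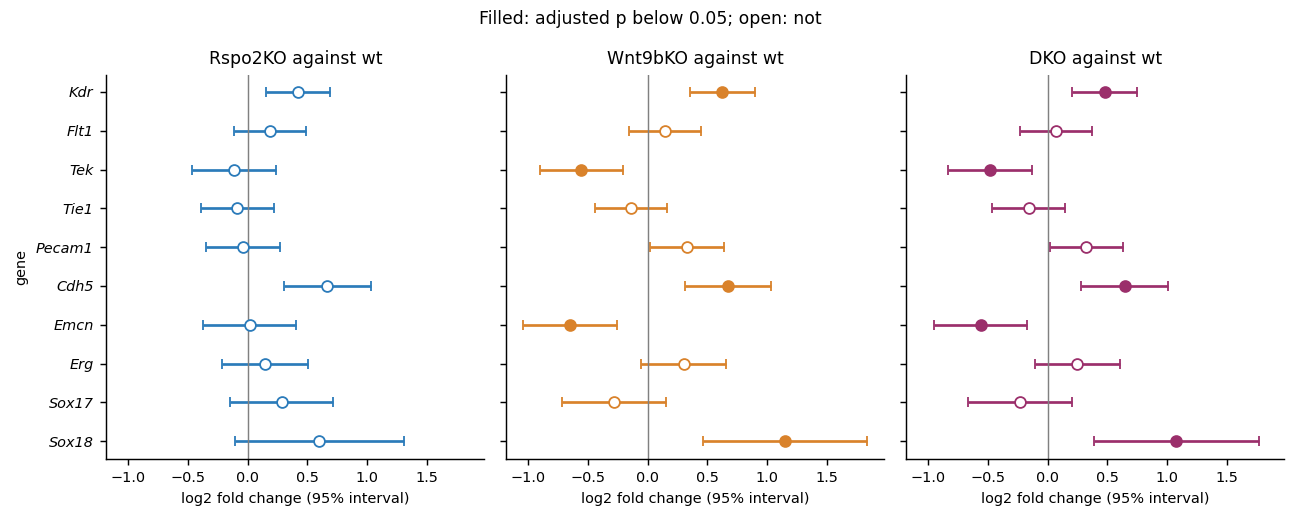
Log2 fold change against wt (horizontal axis) of the 10 endothelial genes in each mutant, with 95% intervals from the edgeR model. Filled points passed an adjusted p of 0.05: *Kdr*, *Cdh5* and *Sox18* to the right and *Tek* and *Emcn* to the left of 0 in Wnt9bKO and DKO, and 0 genes in Rspo2KO.

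The calls against wt leaned on its 2 libraries, and the share of all genes called also fell when either was left out. Fewer of the 10 genes were called without wt 1 or without wt 2, in Wnt9bKO and in DKO. Each of these fits leaves 1 wt library, so only effect sizes are given. The median log2 fold change of the 10 genes in Wnt9bKO was 0.251 without wt 1 and 0.089 without wt 2. In DKO it was 0.182 and 0.05. With both wt libraries kept, 1 gene was called in DKO without DKO 1 (*Cdh5*, adjusted p = 0.0395). There, 3 were called without DKO 2 or without Rspo2KO 2 (*Cdh5*, *Kdr* and *Sox18*). Direction held for the 5 genes under each of these settings. In DKO, 19.1%, 21% and 26.3% of all genes were called without DKO 1, DKO 2 and Rspo2KO 2. Without both libraries at odds with their *Rspo2* labels, 5 genes were called in Wnt9bKO and 4 in DKO, against 29.7% and 25.6% of all genes. Modelling GC content and gene length left 5 genes called in Wnt9bKO and in DKO, against 33.2% and 27.9% of all genes. The log2 fold change of *Kdr* then became 0.44 in Wnt9bKO and 0.33 in DKO. *Emcn*, at 40.7% GC, had the lowest and *Sox18*, at 60.9%, the highest GC content among the longest transcripts of the 10 genes. Over 22 alternatives, the adjusted p in Wnt9bKO ranged from 9.19e-05 to 0.0492 for *Kdr*, 8.37e-05 to 0.149 for *Cdh5*, 0.00483 to 0.151 for *Tek*, 0.000528 to 0.132 for *Emcn* and 0.000515 to 0.145 for *Sox18*. In DKO the highest adjusted p was 0.201 for *Cdh5*, 0.176 for *Kdr*, 0.245 for *Tek*, 0.225 for *Emcn* and 0.198 for *Sox18*.

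**Figure D3:**
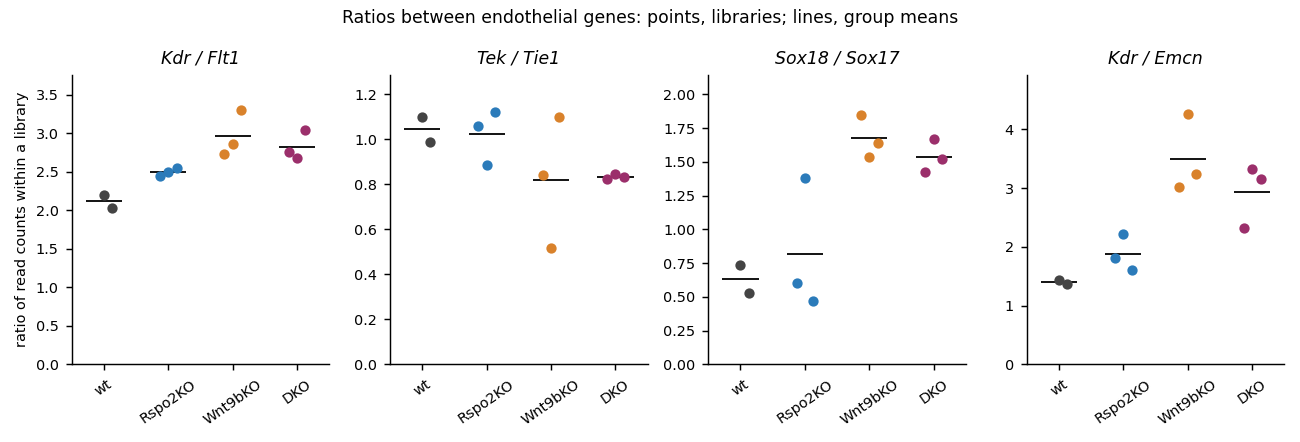
Ratio of read counts of pairs of endothelial genes within each library (axis from 0), with points for libraries and lines for group means. *Kdr* to *Flt1* and *Kdr* to *Emcn* were higher in every Wnt9bKO and DKO library than in wt and Rspo2KO, *Sox18* to *Sox17* was also higher (with Rspo2KO 1, at 1.38, just below the DKO range), and *Tek* to *Tie1* overlapped between wt and Wnt9bKO.

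The mutants were then compared with each other. DKO and Wnt9bKO were alike in small nuclear RNA and differed in *Xist*, while Wnt9bKO and Rspo2KO were alike in *Xist* and differed in small nuclear RNA. Between DKO and Wnt9bKO, 0 of the 10 genes passed with edgeR, with DESeq2 or at an unadjusted p below 0.05, against 0.121%, 0.409% and 5.63% of all genes. The largest difference was that of *Kdr*, −0.15 (interval −0.384 to 0.086), and the widest interval was that of *Sox18* (−0.617 to 0.466), so these data leave room for differences up to those bounds. Against Rspo2KO, *Emcn* was lower in Wnt9bKO (−0.66, interval −1.02 to −0.314, adjusted p = 0.00897) and in DKO (−0.58, −0.928 to −0.227, adjusted p = 0.0246). In Wnt9bKO, *Tek* (−0.44, adjusted p = 0.0413) and *Sox17* (−0.56, adjusted p = 0.0304) were lower and *Pecam1* was higher (0.37, adjusted p = 0.0448) than in Rspo2KO, so 4 of the 10 genes passed against 26% of all genes. In DKO against Rspo2KO, *Emcn* alone passed with edgeR, 1 of 10 against 18.2% of all genes, and *Sox17* (−0.52, adjusted p = 0.0568), *Pecam1* (0.36, adjusted p = 0.0603) and *Tek* (−0.37, adjusted p = 0.101) did not. *Sox17* libraries of Wnt9bKO and DKO all lay below those of Rspo2KO. *Kdr* and *Cdh5*, which were above wt in all mutants, did not differ by the test between Wnt9bKO and Rspo2KO (0.20, interval −0.031 to 0.440, and 0.01, −0.305 to 0.322) or between DKO and Rspo2KO (0.06, −0.180 to 0.292, and −0.02, −0.332 to 0.296).

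Single libraries set some of these calls. *Sox18* was not called against Rspo2KO with all libraries (Wnt9bKO 0.55, adjusted p = 0.138, DKO 0.48, adjusted p = 0.238) but was without Rspo2KO 1, with adjusted p = 0.00367 and 0.00796. Without that library 5 genes were called in each of these comparisons, against 30.6% of all genes in Wnt9bKO and 23.2% in DKO. In DKO against Rspo2KO, 0 genes were called without Rspo2KO 2, Rspo2KO 3, DKO 1 or DKO 2, against 10%, 9.75%, 10.8% and 10.9% of all genes. Without Wnt9bKO 1, 3 genes were called there, against 21.8%. In Wnt9bKO against Rspo2KO, only *Emcn* was called without Rspo2KO 2, Rspo2KO 3 or Wnt9bKO 3, against 15.5%, 15.2% and 20.7% of all genes. There, 2 genes were called without Wnt9bKO 1, DKO 1 or DKO 2, against 25.5%, 24.2% and 23.8%. Without the 2 libraries at odds with their *Rspo2* labels, *Sox17* did not pass in Wnt9bKO (adjusted p = 0.0561) while *Emcn*, *Tek* and *Pecam1* did. Over all alternatives *Emcn* passed in 22 of 22 for Wnt9bKO against Rspo2KO (highest adjusted p 0.0446) and in 18 of 22 for DKO against Rspo2KO (highest 0.101), and *Sox18* passed in 1 of 22 for each.

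The change in the double mutant was also set against the sum of the changes in the single mutants on the log2 scale, to see whether the mutations combined additively. *Xist* was high in wt and DKO and low in both single mutants, so this contrast carries that difference in full. The part of it in the departures below was not tested. With edgeR 0 of the 10 genes departed from additivity, against 0.0635% of all genes, and DESeq2 called 0 as well, against 0.221%. An unadjusted p below 0.05 was found for 2 genes, against 9.45% of all genes. These were *Kdr*, with a departure of −0.57 (interval −0.927 to −0.211, adjusted p = 0.427), and *Cdh5*, with −0.69 (−1.17 to −0.213, adjusted p = 0.427). Both were above wt in each single mutant and were no higher in DKO than in Wnt9bKO.

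Other genes of the vasculature were counted in 6 lists of ligands, receptors, transcription factors, junction and surface genes, arterial genes and venous or lymphatic genes, 71 genes in all, of which 67 were tested. *Apela*, *Etv2* and *Bmx* were too low to test and *Pdpn* was listed at 0. Of the 67, 15 were higher and 8 lower in Wnt9bKO than in wt, which is 34.3% against 32.8% of all genes, and 14 were higher and 6 lower in DKO, 29.9% against 27.5%. These shares lay close to those over all genes. In Rspo2KO against wt, DKO against Wnt9bKO and the interaction, 0 of the 67 were called with edgeR, while 12, 4 and 11 had an unadjusted p below 0.05 (against 11.9%, 5.63% and 9.45% of all genes) and DESeq2 called 1, 0 and 0. Against Rspo2KO, 9 rose and 9 fell in Wnt9bKO, 26.9% against 26% of all genes, and 8 rose and 5 fell in DKO, 19.4% against 18.2%.

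The SOXF gene *Sox7* also rose. It was at 1.88 and 2.90 CPM in wt, 4.42 to 5.69 in Rspo2KO, 5.54 to 7.02 in Wnt9bKO and 5.95 to 6.91 in DKO, with log2 fold changes of 1.39 (adjusted p = 0.000487) in Wnt9bKO and 1.40 (0.000602) in DKO. Among the transcription factors, *Foxo1*, a forkhead factor of vessel growth, rose by 1.11 in Wnt9bKO and 1.07 in DKO on the log2 scale, while *Lmo2*, which endothelial and blood progenitors share, fell by 0.83 in Wnt9bKO and fell by 0.62 in DKO. Of 16 tested factors, 5 rose and 3 fell in Wnt9bKO and 6 rose and 4 fell in DKO. Over all genes, for this list and those that follow, 16.8% rose and 16% fell in Wnt9bKO and 14.3% rose and 13.1% fell in DKO. Those that fell were *Lmo2*, *Tal1*, *Fli1* and, in DKO, *Lyl1* (*Fli1* and *Lyl1* were named after their values were seen).

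Among receptors and co-receptors, 3 of 13 rose in Wnt9bKO and 2 in DKO. With log2 fold changes given for Wnt9bKO and then DKO from here on, *Eng* (endoglin, a TGF-β co-receptor) rose by 0.96 and 1.01 and *Nrp2*, a co-receptor for VEGF-C, by 0.83 and 0.94. *Flt4*, the VEGF-C receptor, rose by 0.53 in Wnt9bKO (adjusted p = 0.0430). Among 8 tested ligands, *Vegfb* rose by 0.83 and 0.82 and *Angpt2*, a ligand of TIE2, rose by 0.59 in Wnt9bKO. *Vegfa*, the main ligand of KDR, was not called against wt, and was higher in Wnt9bKO than in Rspo2KO (0.40, adjusted p = 0.0256).

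The junction and surface list split as the genes above did, with 2 of 20 higher and 5 lower in Wnt9bKO and 2 higher and 2 lower in DKO. *Plvap*, which forms the diaphragms of capillary pores, rose most, from 5.63 and 7.25 CPM in wt to between 19.01 and 23.6 in Wnt9bKO and between 16.3 and 21.6 in DKO (log2 fold changes 1.69 and 1.54, adjusted p = 0.000120 and 0.000277). *Vwf* rose by 0.58 in DKO. *Egfl7*, a secreted endothelial matrix protein, fell by 0.57 and 0.62, and *Ecscr*, a surface regulator of endothelial movement, fell by 0.87 in Wnt9bKO. Of 6 arterial genes, *Efnb2*, the arterial ephrin, rose by 1.03 and 0.99. Of 4 venous and lymphatic genes, *Nr2f2* (COUP-TFII), a factor of vein identity, rose by 1.05 and 1.09, and *Prox1*, the factor of lymphatic identity, by 0.77 and 1.08. *Efnb2*, *Nr2f2* and *Prox1* are also expressed outside vessels in the face, so their levels here are not those of endothelium alone.

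**Figure D4:**
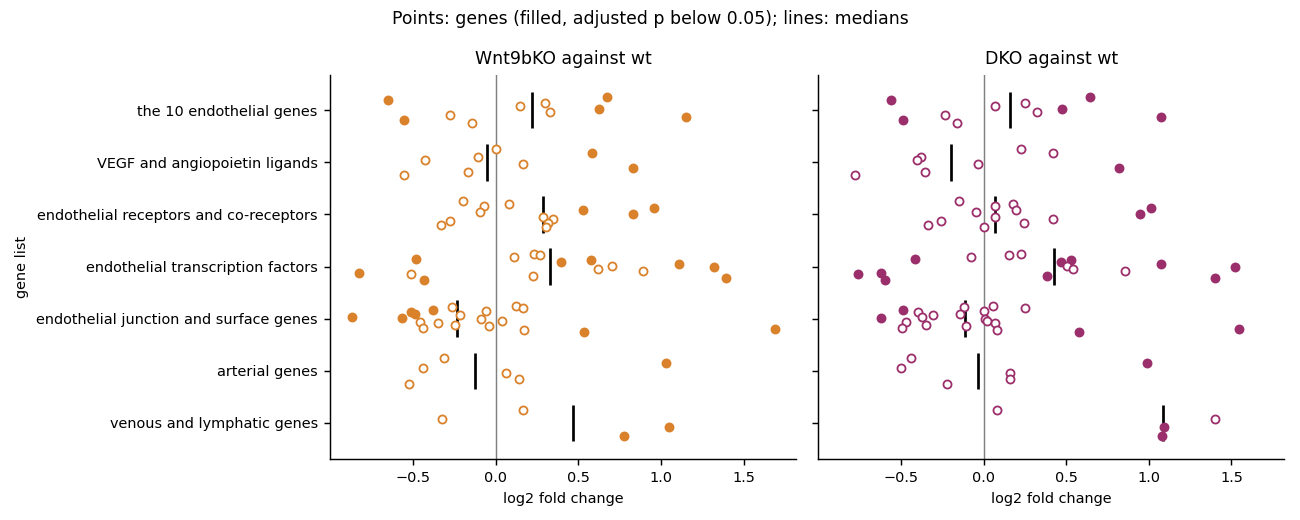
Log2 fold changes against wt (horizontal axis) in Wnt9bKO and DKO for the 10 endothelial genes and the 6 vascular lists, with 1 point per tested gene, filled where the adjusted p was below 0.05, and vertical lines at list medians. In Wnt9bKO genes lie on both sides of 0 in each list, from *Ecscr* at −0.87 to *Plvap* at 1.69.

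Markers of other cells were read beside these results. Erythroid markers, carried by the blood inside the vessels, summed to 3948 and 4903 CPM in wt, 4459 to 5768 in Rspo2KO, 1792 to 2374 in Wnt9bKO and 1744 to 2851 in DKO, so that Wnt9bKO and DKO did not overlap wt and Rspo2KO, as was also the case for *Emcn*. Of 8 erythroid genes, 4 fell in Wnt9bKO and 7 in DKO and 0 rose in either, where 16% and 13.1% of all genes fell. Macrophage markers summed to 38.6 and 38.7 CPM in wt, 37.2 to 48.1 in Rspo2KO, 19.4 to 30.9 in Wnt9bKO and 27.4 to 32.1 in DKO, and 4 and 2 of 6 fell. Megakaryocyte markers, from cells that also carry PECAM1, summed to 11.5 CPM or more in each wt and Rspo2KO library and to 10.5 CPM or less in each Wnt9bKO and DKO library, and 1 of 3 (*Pf4*) fell in Wnt9bKO. Mural cell markers, from cells that wrap vessels, summed to 219 and 222 CPM in wt against 227 to 282 CPM over the mutants, while single markers moved both ways. In Wnt9bKO *Acta2* and *Tagln* were lower (log2 fold changes −0.75 and −0.56) and *Notch3* was higher (0.55), with a median of −0.56 over the 7 markers, and in DKO *Rgs5* was lower (−1.07) and *Notch3* higher (0.42). Heart muscle markers gave 47.3 CPM in wt 1 against 2.38 to 8.99 CPM in all other libraries. Facial mesenchyme markers gave 819 and 884 CPM in wt, 573 to 605 in Rspo2KO, 524 to 1014 in Wnt9bKO and 646 to 715 in DKO, and epithelial markers 180 to 220 CPM in all libraries. Neuron markers summed to 490 and 527 CPM in wt, 585 to 642 in Rspo2KO, 298 to 432 in Wnt9bKO and 522 to 566 in DKO, so that Wnt9bKO lay below every other library, and all 5 were lower in Wnt9bKO than in Rspo2KO, where 13.5% of all genes were. Single markers of these sums were also called against wt. *Krt8* alone among epithelial markers was called, lower in Wnt9bKO and DKO (−0.54 and −0.52). Among neuron markers *Tubb3* was lower in Wnt9bKO (−0.60), and *Elavl4* and *Stmn2* were higher in DKO (0.45 and 0.62). None of the markers of these lists was at 0 in every library. The part of these cells in the endothelial values was not tested.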

How the data were processed

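RNA from facial process explants of E10.5 embryos was sequenced. The authors deposited raw counts of reads for each Ensembl gene. By the study's methods and the submitters' processing notes, reads were trimmed with cutadapt, mapped to GRCm38 with STAR and counted with HTSeq. Genotypes and replicate numbers were taken from the labels. The study's methods give 3 samples per genotype, and 2 wt libraries were analysed here.

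Genes were matched to GENCODE release M21 by identifier (36639 of 38561). Counts were tested with edgeR 4.0.16 (R 4.3.3), using filterByExpr, TMM factors (0.9152 to 1.096), quasi-likelihood tests in 1 model that gave each genotype its own mean over all 11 libraries, and two-sided tests with Benjamini-Hochberg adjustment over 17317 genes. A gene was called at an adjusted p below 0.05. All 10 endothelial genes passed the filter. Intervals are 95% intervals of the model. DESeq2 1.42.0, which the study's methods name, other scalings and filters, a replicate block, a loess offset for GC content and length (span 0.3) and fits without libraries were alternatives. The scripts were tested on simulated data. Promoter sequences are RefSeq's (GRCm38.p6), and figures were drawn with matplotlib 3.10.9. All 10 endothelial genes were named. Genes of each other list were named from up to 3 called genes with the smallest p per comparison, and not all of these are given. The endothelial genes and the lists were chosen with earlier results of these data known.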

Additional observations from a re-analysis of the deposited data

How the results depend on the processing

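Of the 15 values of endothelial genes that passed in the 7 comparisons, 278 of 330 recomputed values passed again and 52 did not, with 0 changes of sign. Of 1200 recomputed values that had not passed, 20 passed. Among these 1200, 61 changed sign without passing, the largest at 0.24 on the log2 scale. The number of endothelial genes called was 1 in Rspo2KO against wt with DESeq2, with no low-count filter and with the study's call rule on edgeR values. Of all genes, these settings called 1.44%, 2.04% and 4.68%. The number was 0 in the edgeR model described above, against 0.0346% of all genes. The call rule gave 2 in DKO against wt in place of 5, and 20.4% of all genes in place of 27.5%. In DKO against Rspo2KO the number was 2 in place of 1 with DESeq2, with a minimum of 10 counts, with only the groups compared, with the replicate block, with the block and the GC content and length offset, and with autosomal protein-coding genes. These settings called 20.1% to 21.5% of all genes, in place of 18.2%. With only the groups compared the number was 1 in place of 4 in Wnt9bKO against Rspo2KO, against 21% of all genes in place of 26%. With no filter the interaction gave 1 (*Cdh5*) in place of 0, against 1.24% of all genes in place of 0.0635%. Leaving out 1 mutant library at a time gave 5 genes each time in Wnt9bKO against wt and 1 to 5 in DKO against wt. There, 27.6% to 35.4% and 19.1% to 31.7% of all genes were called. Without wt 1 or wt 2, fits that leave 1 wt library, fewer were called in both than with all libraries. Leaving out 1 mutant library gave 0 to 5 genes in DKO against Rspo2KO and 1 to 5 in Wnt9bKO against Rspo2KO. The share of all genes called moved as well, from 9.75% to 23.2% in DKO against Rspo2KO and from 15.2% to 30.6% in Wnt9bKO against Rspo2KO. The cause of these changes was not tested.

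For the other vascular lists, the same alternatives were chosen after seeing the data. Calls in Rspo2KO against wt became 1 with DESeq2 and 6 with no filter, against 1.44% and 2.04% of all genes. The interaction gave 1 with no filter, against 1.24%. Leaving out 1 mutant library at a time gave 16 to 22 genes in Wnt9bKO against wt and 14 to 22 in DKO against wt. There, 27.6% to 35.4% and 19.1% to 31.7% of all genes were called. Without wt 1 or wt 2, fits that leave 1 wt library, these counts and shares were lower still. Leaving out any 1 library gave 4 to 19 genes in DKO against Rspo2KO and 8 to 21 in Wnt9bKO against Rspo2KO. There, 9.75% to 23.2% and 15.2% to 30.6% of all genes were called. The lowest counts against Rspo2KO came without Rspo2KO 2, where the share of all genes called also fell.

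The replicate block called 6 endothelial genes in Wnt9bKO and 6 in DKO against wt, adding *Pecam1* (adjusted p = 0.0364 and 0.0423), and 0 in Rspo2KO. Of all genes, it called 35%, 29.6% and 0.0404% in these comparisons, against 32.8%, 27.5% and 0.0346% without the block. The labels tie the numbers to no shared animal, batch or day, and the tests above did not pair the libraries by number. Of 15 same-numbered pairs 3 correlated above 0.1 (median 0.066, range −0.105 to 0.236), against 1 of 30 different-numbered pairs (median −0.024). The deviations of the 2 wt libraries mirror each other, so each wt correlation recurs with the opposite sign. The −0.105 is wt 1 with Wnt9bKO 1, and the different-numbered pair above 0.1 is wt 2 with Wnt9bKO 1 (0.105). Between mutants, every same-numbered pair was positive (0.041 to 0.236) and most different-numbered pairs were negative. These signs, and the 8 of 11 libraries that correlated best with their own number, are a hint from the data that the numbers may mark something shared. With 2 wt libraries, calls against wt rest on few samples. The fit to only the groups compared could not be made for the interaction.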

Other observations

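The genes whose deviations from their genotype's mean log2 CPM ran closest to the mean deviation of the 10 endothelial genes over the 11 libraries were in none of the vascular lists. *Itpr1*, a calcium channel of the endoplasmic reticulum, came first of 14845 genes compared (Pearson's r = 0.967, Spearman's rho = 0.927, and r = 0.939 without the 2 libraries farthest from the median), and the tenth, *Gm26814*, had r = 0.908. The points share each library's depth and scaling, and genes of all kinds were searched, so these values are a description. Among the endothelial genes themselves, 23 of their 45 pairs had a positive Pearson correlation of such deviations, with a median of 0.058.

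Rspo2KO 1 held the highest level of *Sox18* (5.17 CPM) and of *Cdh5* (52.0 CPM) of all libraries. Among genes of the other vascular lists, it was also the highest Rspo2KO library for *Plvap* (14.3 against 8.68 and 8.91 CPM), *Efnb2* (74.9 against 41.2 and 46.5 CPM), *Nr2f2* (77.5 against 45.05 and 60.5 CPM), *Eng* (14.004 against 8.14 and 8.40 CPM) and *Prox1* (21.5 against 12.4 and 13.01 CPM). This library and these genes were picked out after their values were seen, and no test was made.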
